A study of Mus musculus with 7 samples.

Results

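A set of 10 genes of fibroblast growth factor (FGF) signalling was followed across 7 bulk RNA-seq libraries of embryonic day 16 (E16) mouse retina. They are the secreted ligands *Fgf15*, *Fgf9* and *Fgf3*, the receptors *Fgfr1* and *Fgfr2*, and the ERK feedback genes *Spry1*, *Spry2*, *Dusp6*, *Etv4* and *Etv5*. The members were chosen by name, with earlier results of these data known, so counts among them are descriptions. Of the 48440 rows of the deposited count table, 10 carry these names, 1 row each, and all 10 were among the 20019 genes tested. The question was whether lower *Fgf15* comes with different levels of the feedback genes.

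The study removed *Ptbp1*, a repressor of alternative splicing, with Cre recombinase driven by the *Chx10* promoter in retinal progenitors. The loxP sites flank the promoter and first exon of *Ptbp1*. All 7 libraries carry Chx10-Cre. The control group (WT) is 1 library of genotype Chx10Cre with both *Ptbp1* alleles intact, the heterozygotes (Het) are 3 libraries of Chx10-Cre;Ptbp1lox/WT, and the knockouts (KO) are 3 libraries of Chx10-Cre;Ptbp1lox/lox. Each library was made from several whole retinas pooled together, in pools of unequal size, so an error or p-value here measures the spread between pools. The number of embryos per pool is not given in the sources used here. Cells that escape Cre stay in the KO pools.

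FGFs are secreted proteins that bind receptor tyrosine kinases together with heparan sulfate and switch on the RAS, RAF, MEK and ERK kinases. Active ERK raises the transcription of the ETS factors *Etv4* and *Etv5* and of its own inhibitors, the Sprouty proteins and the phosphatase *Dusp6*, so mRNA of these genes is commonly read as a measure of pathway activity. In the eye, FGFs help to set the neural retina apart from the pigmented epithelium and to start neurogenesis.

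Expression is given as CPM, which are counts over the library size after TMM scaling, and ± marks the SD over 3 libraries. The 3 values of a group are listed in the order of the library numbers. KO was compared with Het by edgeR's quasi-likelihood test over all genes tested. A gene was called, and is said to have risen or fallen, where its p, adjusted by Benjamini-Hochberg over all genes tested, was below 0.05 and its log2 fold change was beyond ±0.263, which is a 1.2-fold change. For a gene that was not called, the 95% interval of its log2 fold change is given, since a p above the limit does not show that the levels were equal. The WT library has no replicate and its values carry no error. Total counts ranged from 120593979 to 171117305 per library. *Ptbp1* itself stood at 381 CPM in WT, 221 ± 11.9 CPM in Het and 26.9 ± 20.4 CPM in KO (log2 fold change −3.04, edgeR adjusted p = 0.0316), with the KO libraries at 27.9, 6.04 and 46.9 CPM, all below the Het libraries. That call was lost under edgeR's glmTreat, which tests against the 1.2-fold limit itself, in a robust fit and without any one of Het1, Het2, Het3 and KO1, at log2 fold changes of −3.07 to −2.99. Het1 stood apart in skeletal muscle markers: all 13 muscle markers were highest in that library, and they summed to 306 CPM there against 6.91 to 7.75 CPM in the other libraries. Its pigmented epithelium markers summed to 539 CPM against 23.1 to 66.3 CPM elsewhere. The 16 retinal progenitor markers, led by *Ccnd1*, were all detected in every library and summed to 8061 to 8243 CPM in Het and 8196 to 8646 CPM in KO.

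Of the 10 members, 2 fell in KO and none rose, against a background of 7.22% of all genes tested that were called in either direction, 3.21% lower and 4.01% higher. Both were ligands, *Fgf15* and *Fgf3*. None of the 5 feedback genes was called by edgeR, and none by DESeq2, which called 11.6% of the genes it gave an adjusted p. One of them, *Etv5*, had an unadjusted edgeR p under 0.05, which 29.7% of all genes tested had. In 3 of the 10 members the groups did not overlap (2 with KO below, 1 with KO above), beside 36.3% of all genes tested, 17.7% with KO below and 18.6% with KO above. The median log2 fold change of the members was −0.03, beside −0.0047 over all genes.

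**Figure D1:**
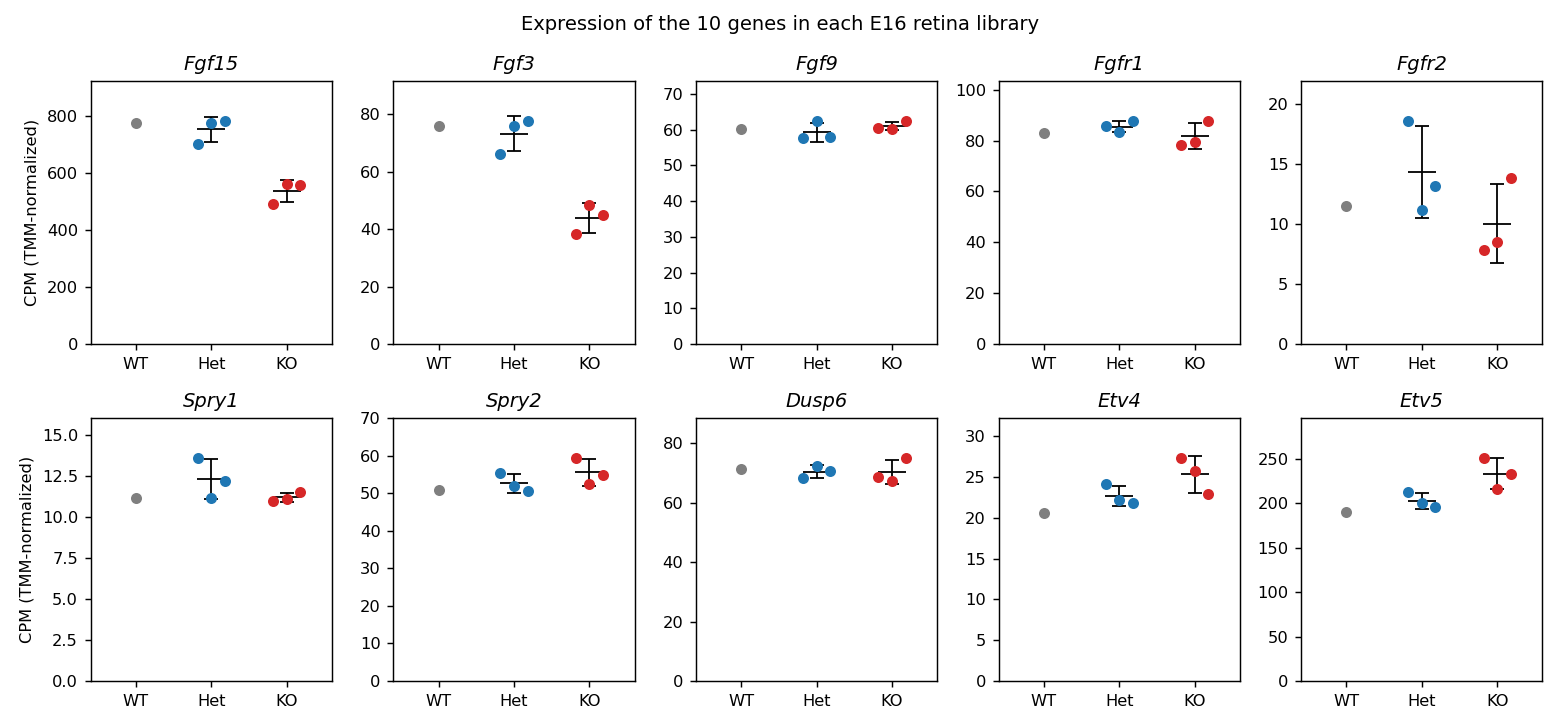
CPM of each of the 10 members in the WT library, the 3 Het and the 3 KO libraries, 1 point a library, with the Het and KO mean and bars of ± SD. The KO points of *Fgf15* and *Fgf3* lie below every Het point, those of *Etv5* lie above, and those of the other 7 members overlap with Het.

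*Fgf15* encodes the mouse counterpart of human FGF19 and is made by retinal progenitors. Per kilobase of exon it was the most abundant member, at 246 CPM per kb in Het and 175 in KO. Next in Het came *Etv5* at 49.4, *Fgf3* at 31.4, *Spry2* at 25.2, *Dusp6* at 22.5 and *Fgf9* at 12.7 CPM per kb. *Fgfr1* at 8.66, *Etv4* at 7.32, *Spry1* at 4.24 and *Fgfr2* at 1.39 CPM per kb closed the order. The *Fgf15* row (ENSMUSG00000031073.6) lies on GRCm38 chromosome 7, bases 144896531 to 144900953, on the plus strand. *Fgf15* stood at 700.0, 775 and 780.2 CPM in the Het libraries, at 492, 559 and 555 CPM in the KO libraries and at 774 CPM in WT. WT lay within the Het range, and all KO libraries lay below all Het libraries. *Fgf15* fell from 752 ± 44.8 CPM in Het to 536 ± 38.0 CPM in KO (n = 3 each), a log2 fold change of −0.49 (SE 0.0674, 95% interval −0.65 to −0.33, edgeR adjusted p = 0.0110). The KO mean was 71.3% of Het. Without Het2 the adjusted p was 0.0539 at a log2 fold change of −0.47, and under glmTreat it was 0.0887. In bulk RNA, fewer cells of a type and less RNA per cell cannot be told apart.

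*Fgf3* encodes a secreted FGF that is known from the optic stalk, the inner ear and the embryonic brain. Its row (ENSMUSG00000031074.14) covers chromosome 7, bases 144838083 to 144844436, on the plus strand, 58.4 kb before *Fgf15*. *Fgf3* stood at 66.3, 75.7 and 77.5 CPM in the Het libraries, at 38.3, 48.4 and 44.99 CPM in the KO libraries and at 75.9 CPM in WT. WT again lay among the Het libraries and the KO libraries lay below them. *Fgf3* fell from 73.1 ± 6.03 to 43.9 ± 5.12 CPM (log2 fold change −0.74, SE 0.0964, 95% interval −0.97 to −0.51, edgeR adjusted p = 0.00930). The KO mean was 60.0% of Het. It was called under all 17 alternative settings and sets of libraries that were run, glmTreat included (adjusted p = 0.0471). In the ratio of CPM per kb, *Fgf15* over *Fgf3* was 8.03, 7.79 and 7.66 in the Het libraries, 9.75, 8.79 and 9.39 in the KO libraries and 7.76 in WT. The ratio was higher in every KO library than in every Het library (exact two-sided permutation p = 0.1, the smallest that 3 against 3 allows), so within a library *Fgf3* was lower against *Fgf15* in KO.

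Of the 10 members, 7 have a promoter window in the RefSeq table of GRCm38.p6, with 250 bases before and 50 after the transcription start. *Fgf15*, *Fgfr1* and *Etv4* have none. The window of *Fgf3* is shown because it belongs to the member with the larger fall, on the plus strand at chr7:144838362-144838661:

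Fgf3: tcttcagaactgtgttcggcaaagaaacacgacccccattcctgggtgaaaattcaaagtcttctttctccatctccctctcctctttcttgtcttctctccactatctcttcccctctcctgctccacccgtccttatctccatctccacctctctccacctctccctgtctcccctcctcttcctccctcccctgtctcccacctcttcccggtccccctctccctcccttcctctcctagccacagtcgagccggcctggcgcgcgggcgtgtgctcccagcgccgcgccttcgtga

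It is 75.0% C or T on the coding strand, a share that 0.107% of the 32817 windows in the table reach. It holds no match to the ETS core CCGGAA and none to the TATA box TATAAA, searched on both strands. These letters are a description of the window and say nothing of which factors bind there.

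*Fgf9*, a secreted FGF that marks the future neural retina early in eye development, stood at 57.6, 62.3 and 57.9 CPM in the Het libraries, at 60.3, 60.2 and 62.3 CPM in the KO libraries and at 60.2 CPM in WT. The groups overlapped. Its log2 fold change was 0.04 (95% interval −0.05 to 0.13, edgeR adjusted p = 0.504), which places KO between 96.6% and 109.6% of Het. Across the 18 secreted ligands, *Fgf15* made up 83.6% ± 0.0694 of the summed CPM per kb in Het and 83.1% ± 0.203 in KO. *Fgf3* went from 10.7% ± 0.264 to 8.94% ± 0.464 and *Fgf9* from 4.34% ± 0.227 to 6.24% ± 0.424. The other 15 ligands together held 1.38% ± 0.0958 in Het and 1.73% ± 0.0607 in KO. Each of these 4 shares separated the Het from the KO libraries (exact two-sided permutation p = 0.1 each, the smallest possible). The 4 shares are parts of 1 sum and are not independent of each other. A share can rise with no rise in the gene's own CPM, since the sum itself was lower in KO. The summed ligand level was 302 CPM per kb in WT, 294 ± 17.5 in Het and 211 ± 14.9 in KO, 28.3% lower in KO with no overlap (exact permutation p = 0.1). *Fgf15* made up most of this sum, so the lower sum largely repeats the fall of *Fgf15* and is not a separate result.

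**Figure D2:**
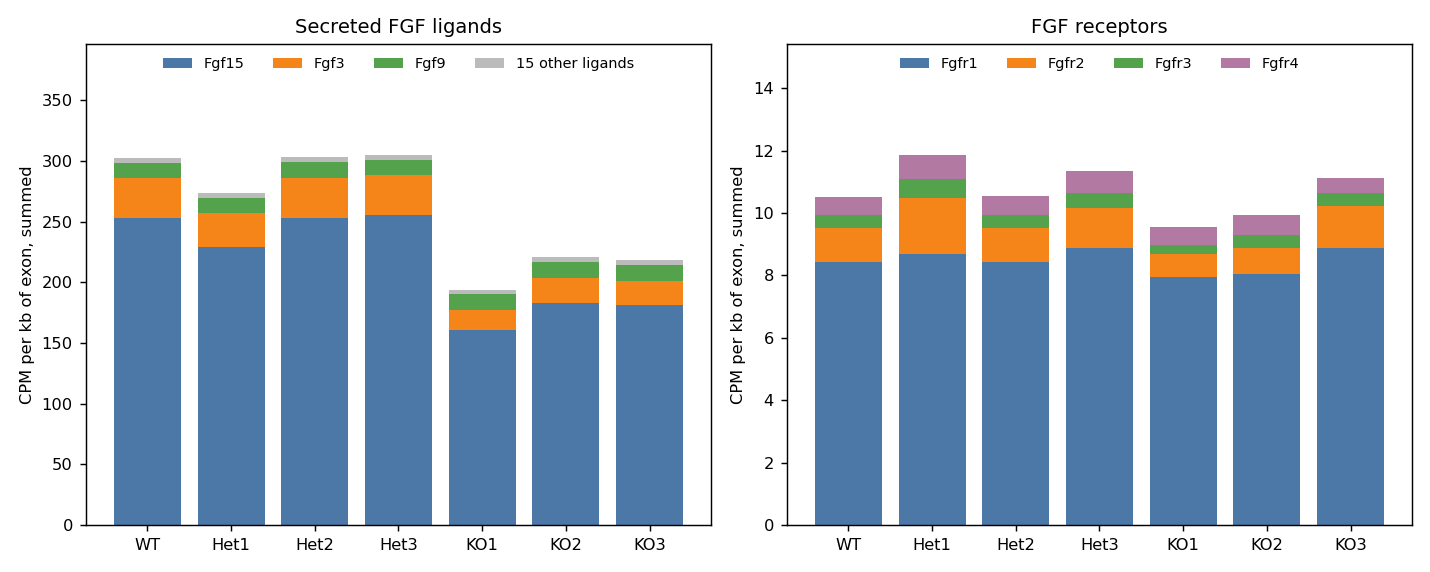
Stacked bars of the secreted ligands (left) and the receptors (right) in each library, in CPM per kilobase of exon. *Fgf15* holds over 80% of the ligand sum in all 7 libraries, the ligand sum of the 3 KO libraries (194 to 221 CPM per kb) is below that of the 3 Het libraries (274 to 305), and *Fgfr1* holds most of the receptor sum.

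*Fgfr1* and *Fgfr2* encode the receptors best known from early eye development. *Fgfr1* stood at 85.7, 83.2 and 87.6 CPM in the Het libraries, at 78.4, 79.5 and 87.6 CPM in the KO libraries and at 83.1 CPM in WT. KO1 and KO2 lay below all Het libraries, and KO3 was level with the highest of them. The log2 fold change was −0.06 (95% interval −0.18 to 0.05, edgeR adjusted p = 0.415). *Fgfr1* made up 77.2% ± 3.53 of the summed CPM per kb of *Fgfr1* to *Fgfr4* in Het and 81.3% ± 1.65 in KO (exact permutation p = 0.2), and the receptor sum was 11.2 ± 0.666 in Het and 10.2 ± 0.824 CPM per kb in KO (p = 0.2, exact permutation). Both overlapped between the groups.

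*Fgfr2* stood at 18.6, 11.2 and 13.2 CPM in the Het libraries, at 7.85, 8.48 and 13.8 CPM in the KO libraries and at 11.5 CPM in WT. Het1 was the highest library and KO3 lay among the Het libraries. The log2 fold change was −0.51 (SE 0.268, 95% interval −1.15 to 0.13, edgeR adjusted p = 0.251). The pigmented epithelium markers shared part of this order. Their sum was 539, 33.95 and 66.3 CPM in the Het libraries, 29.5, 23.1 and 63.5 CPM in the KO libraries and 36.3 CPM in WT. Het1 and KO3 were the highest library for both measures within their group, while KO1 and KO2 stood in opposite order in the 2 measures. None of the 8 tested pigmented epithelium genes was called by edgeR or DESeq2. Of them 2 had an unadjusted edgeR p under 0.05, beside 29.7% of all genes tested. Other lists shared part of the order too. The muscle sum was also highest in Het1 (306 CPM) and lay between 6.99 and 7.75 CPM in KO. Within KO the lens and erythroid sums were highest in KO3 (63.6 and 298 CPM), but within Het neither was highest in Het1. The part of any of these cell types in the *Fgfr2* values was not tested. With Het1 and KO3 left out together, a choice made after seeing the data, *Fgfr2* was called at −0.58 (edgeR adjusted p = 0.0213).

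The feedback genes come next, first the inhibitors of the pathway. *Spry1* and *Spry2* encode Sprouty proteins, which block signalling between receptor and RAF. *Spry1* stood at 13.6, 11.2 and 12.2 CPM in the Het libraries, at 11.02, 11.1 and 11.5 CPM in the KO libraries and at 11.2 CPM in WT. Het1 was highest, and KO3 lay above Het2. *Spry2* stood at 55.3, 51.9 and 50.6 CPM in the Het libraries, at 59.4, 52.4 and 54.9 CPM in the KO libraries and at 50.8 CPM in WT. The groups overlapped in both genes. The log2 fold change of *Spry1* was −0.14 (95% interval −0.33 to 0.06, edgeR adjusted p = 0.311) and that of *Spry2* was 0.08 (95% interval −0.05 to 0.21, edgeR adjusted p = 0.374).

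*Dusp6* encodes a cytoplasmic phosphatase that removes the activating phosphates of ERK. It stood at 68.2, 72.5 and 70.6 CPM in the Het libraries, at 68.5, 67.4 and 75.1 CPM in the KO libraries and at 71.5 CPM in WT. The groups overlapped, with KO at 99.9% of Het on average. The log2 fold change was −0.0018 (SE 0.0481, 95% interval −0.12 to 0.11, edgeR adjusted p = 0.984), so the interval spans 92.2% to 108.2% of Het. *Dusp6* lies on chromosome 10, as *Ptbp1* does.

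*Etv4* and *Etv5* encode ETS transcription factors that respond to ERK. *Etv4* stood at 24.2, 22.2 and 21.8 CPM in the Het libraries, at 27.4, 25.8 and 22.9 CPM in the KO libraries and at 20.6 CPM in WT. KO1 and KO2 lay above all Het libraries and KO3 between Het1 and Het2. The log2 fold change of *Etv4* was 0.16 (95% interval −0.02 to 0.34, edgeR adjusted p = 0.217), and without Het1 and KO3 it was 0.28 and called (edgeR adjusted p = 0.0270). *Etv5* stood at 212, 200.2 and 195.5 CPM in the Het libraries, at 251, 216 and 233 CPM in the KO libraries and at 190.5 CPM in WT. All KO libraries lay above all Het libraries, and WT lay below both groups. The Het mean was 203 ± 8.69 CPM and the KO mean 233 ± 17.4 CPM (log2 fold change 0.20, SE 0.0608, 95% interval 0.06 to 0.35, edgeR adjusted p = 0.0787). DESeq2 gave *Etv5* an adjusted p of 0.0107 at a log2 fold change of 0.20, which is under the 1.2-fold limit.

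**Figure D3:**
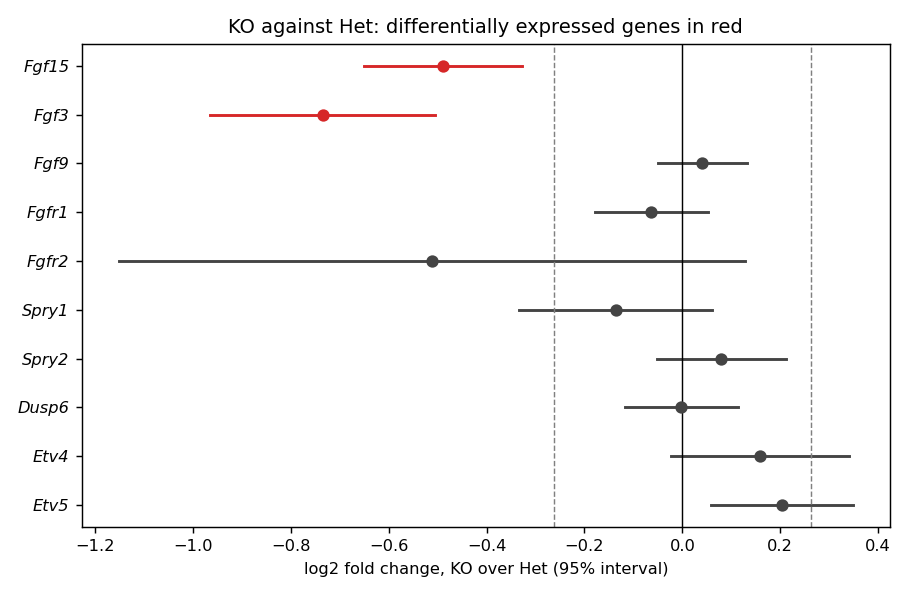
Log2 fold change of KO against Het for each of the 10 members, with its 95% interval from edgeR, in the order ligands, receptors and feedback genes, with dashed lines at the 1.2-fold limit and called genes in red. The intervals of *Fgf15* and *Fgf3* lie below 0 and that of *Etv5* lies above 0, while the other 7 include 0.

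Windows of *Spry2* and *Dusp6* are shown because ETS factors such as *Etv4* and *Etv5* bind a core of this kind. The pair contrasts a window with a match to CCGGAA and one without. The capitals mark the match. *Spry2* lies on the minus strand at chr14:105896770-105897069 and *Dusp6* on the plus strand at chr10:99262981-99263280, both GRCm38.p6:

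Spry2: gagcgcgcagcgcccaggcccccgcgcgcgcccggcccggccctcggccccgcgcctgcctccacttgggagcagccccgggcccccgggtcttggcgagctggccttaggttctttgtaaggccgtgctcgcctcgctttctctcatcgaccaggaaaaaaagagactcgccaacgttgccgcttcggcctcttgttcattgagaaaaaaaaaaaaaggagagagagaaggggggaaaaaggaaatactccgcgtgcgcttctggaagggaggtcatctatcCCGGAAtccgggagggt
Dusp6: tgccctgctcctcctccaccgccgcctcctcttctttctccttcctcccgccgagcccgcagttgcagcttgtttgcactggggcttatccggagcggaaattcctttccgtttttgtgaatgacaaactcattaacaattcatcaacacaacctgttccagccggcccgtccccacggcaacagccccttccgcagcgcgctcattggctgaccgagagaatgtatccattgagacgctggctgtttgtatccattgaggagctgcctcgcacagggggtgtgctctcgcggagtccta

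The match in *Spry2* begins 34 bases into the transcript. It was the only window with CCGGAA among the 8 windows of the 7 members, and none of the 8 held TATAAA. Of all 32817 windows, 14.9% hold CCGGAA and 13.6% hold TATAAA. Shorter forms such as GGAA, which the *Dusp6* window does hold, were not searched. A window with no CCGGAA is thus not shown to lack sites for ETS factors, and a match does not show binding.

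Set against the feedback genes within each library, *Fgf15* was lower in KO. The log2 ratio of *Fgf15* over *Spry1* was 5.93 ± 0.224 in Het and 5.57 ± 0.0884 in KO, a difference of −0.36. Over *Spry2* the difference was −0.57, over *Dusp6* −0.49, over *Etv4* −0.65 and over *Etv5* −0.69. In each of the 5 ratios every KO library lay below every Het library (exact permutation p = 0.1 each, the smallest possible). The ratios over *Fgf9* and *Fgfr1* differed by −0.53 and −0.42 in the same way, and the ratio over *Fgfr2* overlapped between groups (0.04, exact permutation p = 0.8). These ratios share *Fgf15* and are not independent of each other. *Fgf15* alone already separated the groups, so where a ratio separates them it restates the fall of *Fgf15*. The ratios are no further evidence on the feedback genes.

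*Fgf15* and *Fgf3* are neighbours on chromosome 7, with *Fgf4* and *Gm26793* between them among the genes tested. Of the 5 tested genes on each side of *Fgf15*, *Fgf3* was the only one called, beside 7.22% of all genes tested. Several of the others had low levels and wide intervals, so a missing call there does not show an equal level. *Fgf4* was close to the floor at 0.0599 CPM in Het and 0.0630 CPM in KO. *Ccnd1*, which encodes cyclin D1 and starts 43.4 kb after *Fgf15* on the other strand, had 2889.7 ± 20.3 CPM in Het and 3104 ± 174 CPM in KO (log2 fold change 0.10, 95% interval −0.02 to 0.23, edgeR adjusted p = 0.243). *Oraov1*, which lies between them and overlaps the end of *Ccnd1* on the opposite strand, had a log2 fold change of 0.06 (95% interval −0.03 to 0.15).

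*Gm26793* and *Gm45180* lie on the other strand and overlap the start and the end of the *Fgf15* gene. Whether the counting used strand is not given in the sources used here, so reads in these overlaps cannot be told apart. *Gm26793* stood at 7.26 ± 0.496 CPM in Het and 6.63 ± 0.167 CPM in KO, and *Gm45180* at 0.761 ± 0.154 and 1.02 ± 0.337 CPM, against over 490 CPM for *Fgf15* in each library. The remaining neighbours, *Gm44929*, *Gm10152*, *Tpcn2* and *1810010D01Rik*, had log2 fold changes of −0.05, −0.52, −0.17 and −0.63, all with intervals that include 0 and with levels under 5 CPM.

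**Figure D4:**
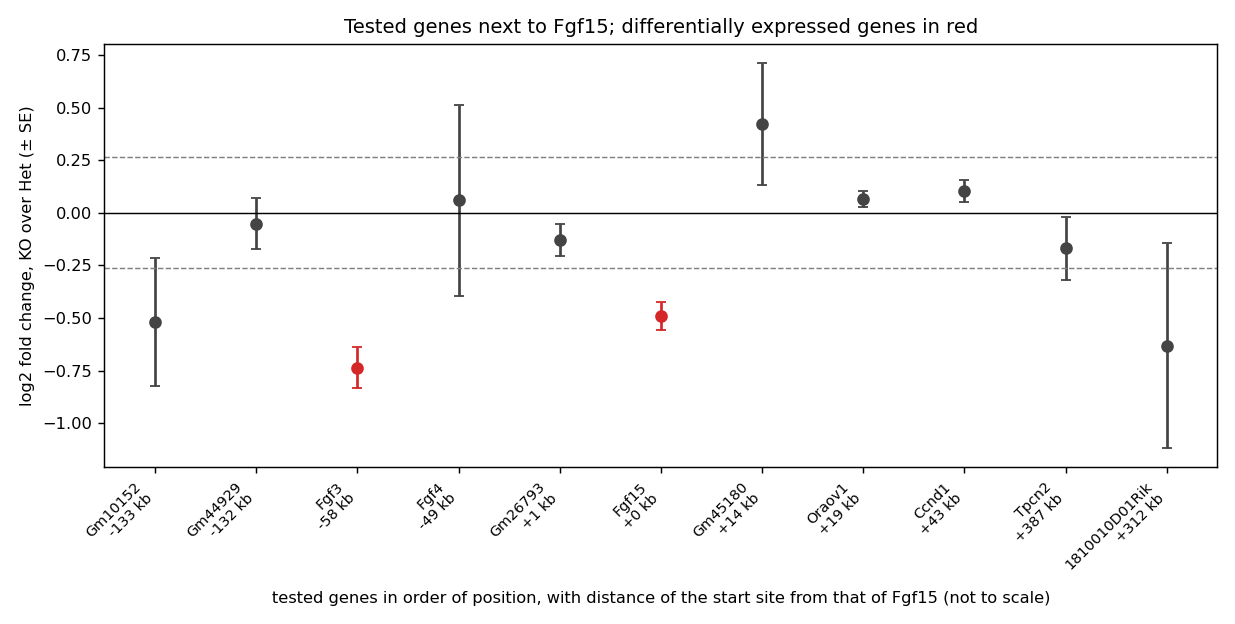
Log2 fold change of KO against Het, with bars of ± SE and dashed lines at the 1.2-fold limit, for *Fgf15* and the 5 tested genes on each side of it, spaced evenly in their order along chromosome 7. *Fgf3* (−0.74) and *Fgf15* (−0.49) are the called genes, in red, and the other 9 are in grey.

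The 5 genes whose pattern over the 7 libraries was most like that of *Fgf15* were *Dhx34*, *Plk3*, *Elavl4*, *Chst15* and *Tub*. Likeness was measured as the root mean square difference of log2(CPM + 1) after each gene's mean was subtracted, among 11320 genes with a mean of at least 5 CPM. The difference was 0.0328 for *Dhx34*, an RNA helicase gene, 0.0371 for *Plk3*, a kinase gene, and 0.0381 for *Elavl4*, an RNA-binding protein gene of neurons. It was 0.0437 for *Chst15*, a chondroitin sulfotransferase gene, and 0.0493 for *Tub*. *Fgf3* ranked 272 by this measure, at 0.126, and the feedback genes ranked from 4288 (*Spry1*) to 10347 (*Etv5*). The order describes these 7 libraries and was not tested.

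The wider pathway was read through 7 lists with 103 genes, 102 of them in the table and 97 tested. Of the 97, 11 were called (11.3%, against 7.22% of all genes), 3 higher and 8 lower in KO, with a median log2 fold change of −0.06. The gap to all genes depended on the setting. DESeq2 called 12 of the list genes, beside 11.6% of all genes it gave an adjusted p. With at least 10 counts in every library, 11 list genes were called, beside 9.14% of all genes. Among the 15 other secreted ligands 11 were tested and none was called by edgeR, while 2 of the 11 had an unadjusted p under 0.05 (29.7% of all genes did) and DESeq2 called 1, *Fgf2* (adjusted p = 0.0290). Their median was −0.42 at low levels: *Fgf2* had 2.79 CPM in Het and 2.01 in KO (log2 fold change −0.47, 95% interval −0.79 to −0.15, edgeR adjusted p = 0.0684), and *Fgf8* 2.19 and 1.63 CPM (−0.42, interval −0.85 to 0.0012). *Fgf6*, singled out after its values were seen, had 30 counts in Het1, the library highest in muscle markers, and 0 in the other libraries.

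Of the 4 FGF homologous factors, which stay inside the cell and bind sodium channels, *Fgf11* rose from 18.9, 18.7 and 17.2 CPM in Het to 24.2, 21.5 and 21.1 CPM in KO (log2 fold change 0.28, edgeR adjusted p = 0.0484). That call was lost in 8 of the 17 alternatives. *Fgf13* had 80.8 CPM in Het and 87.4 in KO (0.11, adjusted p = 0.0487 by edgeR, under the fold limit), and *Fgf12* 48.0 and 53.9 CPM. None of the 10 other receptors, co-receptors and adaptors was called by edgeR or DESeq2, and none had an unadjusted p under 0.05. By CPM, which is not per length, the highest of them were the adaptor *Frs2*, at 79.9 CPM in Het and 81.9 in KO, and *Flrt2*, at 69.7 and 68.4 CPM.

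Of the 20 genes that make or carry heparan sulfate, the polysaccharide that FGFs bind beside their receptors, 3 fell and none rose, and 18 had a negative log2 fold change (median −0.12). Of all genes tested, 3.21% fell and 51.0% had a negative value. The list had 1 call without Het2, Het3, KO1 or KO2 and 0 under glmTreat. *Sulf2*, an extracellular sulfatase that trims heparan sulfate, fell from 284, 296 and 300.2 CPM in Het to 237, 246 and 243 CPM in KO (−0.28, edgeR adjusted p = 0.00798). The syndecan *Sdc1* fell by 0.30 and the glypican *Gpc6* by 0.38 on the log2 scale (edgeR adjusted p = 0.0323 and 0.0148), and *Sdc1* lost its call in 7 of the 17 alternatives. *Sdc3*, first of the list in mean CPM over the 7 libraries (270.3, against 269.5 for *Sulf2*), had 262 CPM in Het and 284 in KO and overlapped.

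Of the 11 further ERK feedback genes 10 were tested, and 2 fell, beside 3.21% of all genes tested. Both are ERK phosphatases related to *Dusp6*. *Dusp7* went from 20.03, 20.8 and 22.5 CPM in Het to 12.5, 14.7 and 15.7 CPM in KO, with WT at 23.0 CPM (−0.56, edgeR adjusted p = 0.0175), and *Dusp9* from 3.05, 3.58 and 3.76 to 2.02, 2.38 and 2.32 CPM, with WT at 3.74 CPM (−0.63, edgeR adjusted p = 0.0264). In both genes WT lay above all KO libraries. Neither was called without Het2, without Het3, without KO2 or under glmTreat, and *Dusp9* also not without KO1. The genes of the list with the most CPM, not scaled by length, were *Spred1*, with 208 CPM in Het and 226 in KO (log2 fold change 0.13, 95% interval 0.03 to 0.22, edgeR adjusted p = 0.0980), and *Spred2*, with 76.4 and 71.0 CPM (−0.11, interval −0.18 to −0.03, adjusted p = 0.0723 by edgeR). The 2 Spred inhibitors had log2 fold changes of opposite sign, and neither was called.

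Of 13 early response genes, which ERK induces within minutes, 12 were tested and 1 was called (8.33%, against 7.22% of all genes). An unadjusted edgeR p under 0.05 was found in 5 of the 12, beside 29.7% of all genes tested. The called gene, *Ier3*, rose from 3.25, 2.63 and 2.43 CPM in Het to 4.78, 4.29 and 4.17 CPM in KO (0.67, edgeR adjusted p = 0.0279). It was called in 12 of the 17 alternatives, and not under glmTreat or without Het2, Het3, KO1 or KO2. *Jun* had 96.7 CPM in Het and 95.8 in KO, and *Ier2* 26.2 and 28.1 CPM. In the cascade from RAS to ERK and its targets, 4 of 30 genes were called (13.3%, against 7.22% of all genes). Of the 30, 15 had an unadjusted edgeR p under 0.05 (50%, against 29.7% of all genes). *Ksr1*, a scaffold for RAF and MEK, rose from 46.3 to 55.8 CPM (0.27, edgeR adjusted p = 0.0135). Its call was lost in the same alternatives as that of *Ier3*. The ERK-activated kinase genes *Rps6ka1* and *Rps6ka2* fell by 0.59 and 0.45 on the log2 scale (edgeR adjusted p = 0.0148 and 0.0032), and the ETS factor gene *Elk3* by 0.72 (adjusted p = 0.0126 by edgeR). *Rps6ka1* was called in 13 of the 17 alternatives and *Elk3* in 14. *Rps6ka2* went from 119.5, 121 and 118 CPM in Het to 86.5, 91.6 and 83.9 CPM in KO, and it was the only one of the 11 called list genes that stayed called in all 17 alternatives. The ERK-regulated repressor *Cic* had 266 CPM in Het and 292 in KO (log2 fold change 0.14, adjusted p = 0.0462 by edgeR, under the fold limit).

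**Figure D5:**
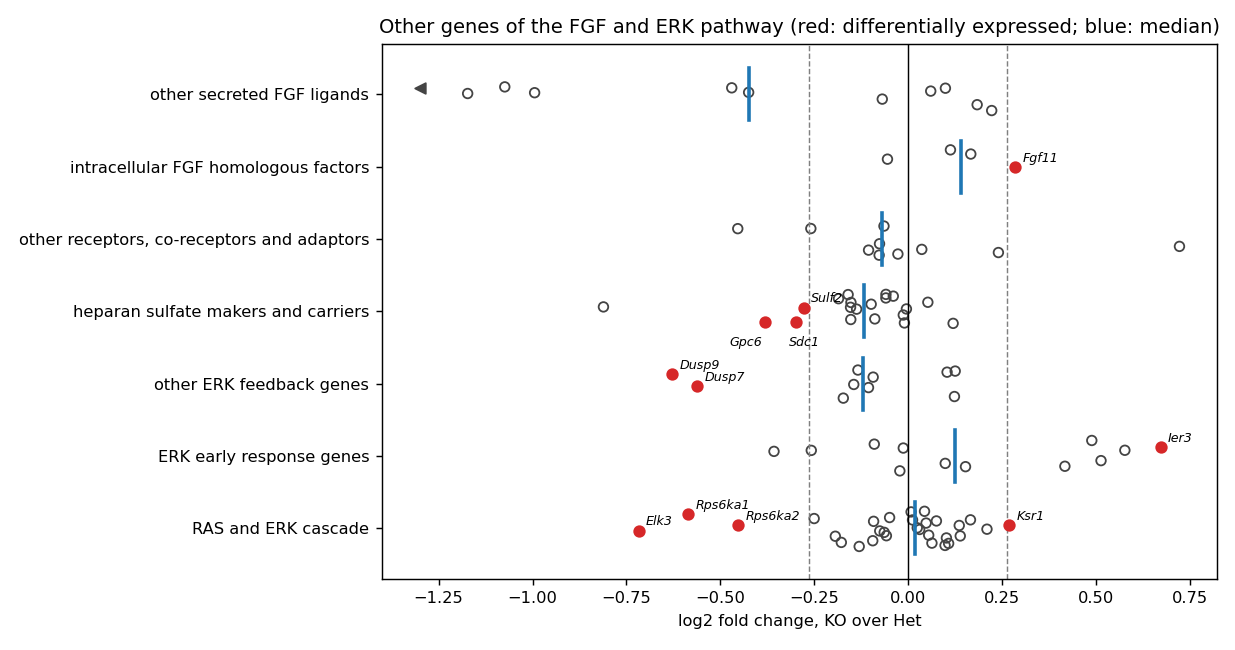
Log2 fold change of KO against Het for every tested gene of the 7 pathway lists, 1 point a gene, with called genes in red and named, the list median as a blue bar and dashed lines at the 1.2-fold limit. 11 of 97 genes are called, and a triangle stands for *Fgf6*, beyond the axis and counted only in Het1.

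Markers of other cell types moved between Het and KO beside these genes. The 8 photoreceptor markers summed to 547 to 611 CPM in Het and 695 to 766 CPM in KO. By edgeR 5 of them were called higher, beside 4.01% of all genes tested. The 8 ganglion cell markers summed to 1917 to 2022 CPM in Het and 1667 to 1886 CPM in KO. By edgeR 2 were called lower, among them *Elavl4*, beside 3.21% of all genes tested, and DESeq2 called 4. One marker, *Nefl*, went the other way (log2 fold change 0.21), with all KO libraries above all Het libraries. The sums of the 8 microglial markers (49.5 to 69.4 CPM in Het, 71.0 to 94.1 in KO) and the 7 endothelial markers (385 to 404 and 482 to 579 CPM) also did not overlap. Of the microglial markers edgeR called 1, higher in KO, and DESeq2 called 7, beside 11.6% of all genes it gave an adjusted p. The endothelial sum was carried by *Kdr*, named after its values were seen, at 376, 366 and 363 CPM in the Het and 562, 469 and 468 CPM in the KO libraries, while 5 of the 7 markers had a negative log2 fold change and the list median was −1.45. No gene of the 16 progenitor markers was called by edgeR or DESeq2, and their sums overlapped. The groups did not overlap in 9 of the 16 (5 with KO above, 4 with KO below), beside 36.3% of all genes tested. Differences of opposite sign can thus cancel in the sum. Of the 16, 6 had an unadjusted edgeR p under 0.05, beside 29.7% of all genes tested. The part of these cell types in the *Fgf15* and *Fgf3* values was not tested.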

How the data were processed

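The 7 libraries (1 WT, 3 Het, 3 KO) are bulk mRNA of pooled E16 retinas. Reads were aligned by the authors to the mouse genome (mm10) with STAR and assigned to genes with featureCounts. The deposited values are raw counts, whole and not normalized. Tool versions, the strand setting and the handling of reads that map to several places are not given in the sources used here. All 48440 rows carry a gene identifier and 0 value columns lacked a sample. Replicates were not copies of each other, since the variance between them was 14.0 to 53.2 times that of counting.

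The counts were fitted with edgeR 4.0.16 (limma 3.58.1, R 4.3.3). Genes were kept by filterByExpr on genotype and scaled by TMM (factors 0.988 to 1.03). All 7 libraries entered 1 quasi-likelihood fit with a mean per genotype, and p-values were adjusted over 20019 genes. The biological coefficient of variation was 21.5%. The SE is the log2 fold change over the square root of its F statistic. Scripts were tested on simulated data. The order of the members and the ligand and receptor shares use CPM divided by exon length, from GENCODE M21 (GRCm38), which is not the release used for counting. Promoter windows come from RefSeq (GRCm38.p6).

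The members and lists were chosen with earlier results of these data known, so counts of members and of list genes are descriptions. The genes named are the members, *Ptbp1*, each called gene and the 2 genes with the highest mean CPM (not per length) of a pathway list, the 5 tested neighbours of *Fgf15* on each side and the 5 genes most like it. The result for 1 of these genes is not given here. Marker lists of lens, pigmented, erythroid and optic nerve head cells were also summed. Alternatives were DESeq2 1.42.0, RLE and upper-quartile scaling, no filter, a minimum of 10 counts per library, a fit without WT, the replicate number as a block, a call by adjusted p with no fold limit, glmTreat, a robust fit, each library left out, and shares without exon length. Leaving out Het1 and KO3 together was added after seeing the data. Splicing and other assays were not analysed here.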

Additional observations from a re-analysis of the deposited data

How the results depend on the processing

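*Fgf15* was called in 15 of 17 alternatives and *Fgf3* in all 17. *Fgf15* was −0.49 under glmTreat (adjusted p = 0.0887) and −0.54 to −0.43 when each library was left out, and only the set without Het2 lost the call. The members called numbered 1 under glmTreat, 1 to 2 with each library left out and 4 without Het1 and KO3, which added *Fgfr2* and *Etv4*. The pathway lists gave 1 called gene under glmTreat and 2 to 12 with each library left out (3 without Het2, 2 without Het3, 5 without KO1, 2 without KO2). Over all genes these settings called 1.08% (glmTreat), 1.93% (without Het2), 2.49% (without Het3), 6.12% (without KO1), 3.06% (without KO2) and 10.3% (without Het1 and KO3). *Ptbp1* was −3.04 and not called under glmTreat (adjusted p = 0.103) and the robust fit (adjusted p = 0.0842), and ranged from −3.70 to −2.56 with each library left out, called in 2 of 6. *Dusp6*, near 0 throughout, turned positive under upper-quartile scaling (0.00055), with at least 10 counts (0.0013) and in a fit without WT (0.00012), and ranged from −0.048 to 0.027 with each library left out. The *Fgf15* share of the ligands was 0.50 percentage points lower in KO (−0.50, −0.61 to −0.41 with each library left out) and −1.51 without exon length. The causes were not tested. Deviations of same-numbered Het and KO libraries correlated at −0.12, 0.26 and 0.019, and those of differently numbered libraries at −0.35 to 0.22. With 3 libraries a group this cannot decide whether the numbers pair the samples. The replicate block gave *Fgf15* −0.49 (adjusted p = 0.00944), *Ptbp1* −3.36 (adjusted p = 0.0376), 2 members and 10 pathway genes.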

Other observations

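Of the 8 erythroid markers none was called by edgeR. An unadjusted edgeR p under 0.05 was found in 3, beside 29.7% of all genes tested. DESeq2 called 2, beside 11.6% of all genes it gave an adjusted p. Their sum was 289, 189 and 531 CPM in the Het libraries, 37.1, 24.5 and 298 CPM in the KO libraries and 339.6 CPM in WT. KO3 lay within the Het range and KO1 and KO2 below it. The 10 lens markers, of which 9 were tested, summed to 26.01, 60.1 and 83.3 CPM in Het and to 3.01, 7.02 and 63.6 CPM in KO, with KO3 again among the Het libraries. In WT the lens sum was 15.9 CPM, below all Het libraries. By edgeR 1 lens marker was called lower, beside 3.21% of all genes tested. DESeq2 called 2, beside 11.6% of all genes it gave an adjusted p. *Fgf15* and *Fgf3* in KO3 (555 and 44.99 CPM) stayed below all Het libraries. The 5 markers of the optic nerve head and astrocytes summed to 25.3 to 31.7 CPM in Het and 30.5 to 38.8 CPM in KO. By edgeR 2 of them were called higher, beside 4.01% of all genes tested.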
